A study of Mus musculus with 8 samples.

Results

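The genes described here are 32 members of the p53 response and the apoptosis machinery, taken by gene symbol from the 26608 genes listed in tag count tables of mouse neural tube. They were taken by name, with no threshold on their counts but with earlier results of these data known, and all 32 were found. The tissue came from FVB mouse embryos at day 8.5 of gestation. It was laser-microdissected from cryosections on either side of closure site 1, the place where the neural folds first meet: closed tube lies just posterior to it and open tube just anterior. The 4 groups of 2 libraries were closed tube of diabetic dams (libraries 15 and 16), open tube of diabetic dams (13 and 14), closed tube of normal dams (11 and 12) and open tube of normal dams (09 and 10). All samples were of the FVB strain and the labels name no allele or drug. The sources used here do not give how diabetes was brought about, the number of embryos or litters behind a library, or whether both tissues of a dam group shared embryos. The p-values below therefore measure only the spread between these libraries, which may be technical in part or, with diabetic dams, in whole. With normal dams the libraries of each group were of opposite embryo sex by Xist and Ddx3y, given below. They thus held different embryos, whose litters are not given.

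The transcription factor p53, encoded by Trp53, is held low by Mdm2 and Mdm4 and is stabilised by stress such as DNA damage. It then switches on genes of cell cycle arrest and repair, and genes of cell death, among them death receptors and BH3-only proteins. BH3-only proteins free Bax and Bak1 from survival members of the Bcl2 family, Bax and Bak1 open the outer mitochondrial membrane, and released cytochrome c joins Apaf1 to activate caspase 9. In the mouse, loss of the neural tube transcription factor Pax3 leads to p53-dependent cell death and failed closure, and embryos without Apaf1 or Casp9 have too many brain cells and defects of the cranial neural tube. This activity is set largely at the level of protein, which tag counts do not measure.

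Each transcript in this SAGE assay is counted by a short tag next to a CATG site near its 3′ end, so a count needs no correction for transcript length. The windows below are those that carry the results on single genes, together with those of the pair of members without a count. Each runs 5′ to 3′ for 26 bases from the CATG site nearest the 3′ end of the longest RefSeq-supported coding transcript in GENCODE M21 (GRCm38), and capitals mark the 4 bases of the site. They are predicted from the annotation, on chromosomes 11, 14, 4, 1, 2, 1, 17, 1, 19 and 4 in the order given, and were not read from the deposited counts.
Trp53: CATGctacagaggagtctggagacag
Tnfrsf10b: CATGctggagaggtagctcagcggtt
Casp9: CATGtagcccaggctgcccttaaaac
Bcl2: CATGtctgtctgaaaaaataaaataa
Bcl2l11: CATGcgggtcctgtccacacgtgtcg
Phlda3: CATGcttattccagaatgaagaggcc
Cdkn1a: CATGtattgtggctccctccctgtct
Mdm4: CATGggtgtttgcactatgtaatgct
Bad: CATGgaggcgcaggggctatggagac
Sesn2: CATGgggggaagttctagaggggaca

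All 32 members had such a site. Their windows were compared with annotated transcripts only, not with the rest of the genome, and 31 were found in no other gene. The exception was Trp53, whose window is identical in its pseudogene Trp53-ps, so its counts are uncertain to the extent that the counting could not tell the copies apart. Allowing up to 2 mismatches, Casp8 also had 1 other gene with a near window, against 6.25% of the 12141 counted genes compared. Over their annotated transcripts Bcl2l11 has 4 distinct windows, Mdm4 and Casp8 have 3 each, and Bcl2, Casp9, Cdkn1a, Apaf1 and Fas have 2 each, so the counts of these 8 genes may add up or miss isoforms. Bad, a BH3-only protein, and Sesn2, a stress-induced sestrin, were at 0 in all 8 libraries although each has a window of its own. The authors' matching of tags to genes is not stated, so a 0 is reported as no counted tag and not as absent RNA.

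Libraries held 5041586 to 16655583 counts and 9920 to 12924 genes with a count. Levels are CPM, the count divided by the library total and multiplied by 1000000. Of the 32 members, 30 had a count, 20 were counted in every library and 10 were at 0 in 1 to 7 libraries. With a fixed 7 ng of RNA per library, counts in single libraries can drop out: 8 of 30 members with at least 20 counts in one library were at 0 in the other library of the same group, against 4031 of 12674 genes in all (26.7% and 31.8%). Some libraries stood apart in their tissue markers. Open library 13 of diabetic dams had 30.9 CPM of the neural progenitor gene Sox2, against 287 to 549.8 CPM in the other 7 libraries. Its paraxial mesoderm markers summed to 1600.2 CPM and its endothelial markers to 318 CPM, the highest of the 8 libraries for both. Xist, which marks female cells, stood at 297 and 301 CPM in normal libraries 12 and 10 and at no more than 4.27 CPM in the other 6, all 4 of diabetic dams included. Ddx3y, a Y-linked gene, showed the reverse, so dam and embryo sex are not balanced.

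The machinery of the mitochondrial pathway was expressed in every library and dominated the members. Cycs, which encodes cytochrome c of the respiratory chain and of the apoptosome, averaged 1374 CPM over the 8 libraries. Mcl1, a short-lived survival member of the Bcl2 family, followed at 350.0 CPM, and the pore former Bax at 261 CPM. Apaf1, the scaffold of the apoptosome, averaged 144 CPM. These 4 genes held 78.6 to 89.2% of the members' summed level, which ran from 2138 to 2739.8 CPM. A further 11 members averaged 10 to 100 CPM, 14 averaged 1 to 10 CPM, and the death receptor Fas averaged 0.469 CPM, while Bad and Sesn2 had no count. Levels of p53 targets varied: Cdkn1a and Ccng1 averaged 4.65 and 3.05 CPM, while Bbc3 and Phlda3 averaged 12.7 and 17.3 CPM.

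**Figure D1:**
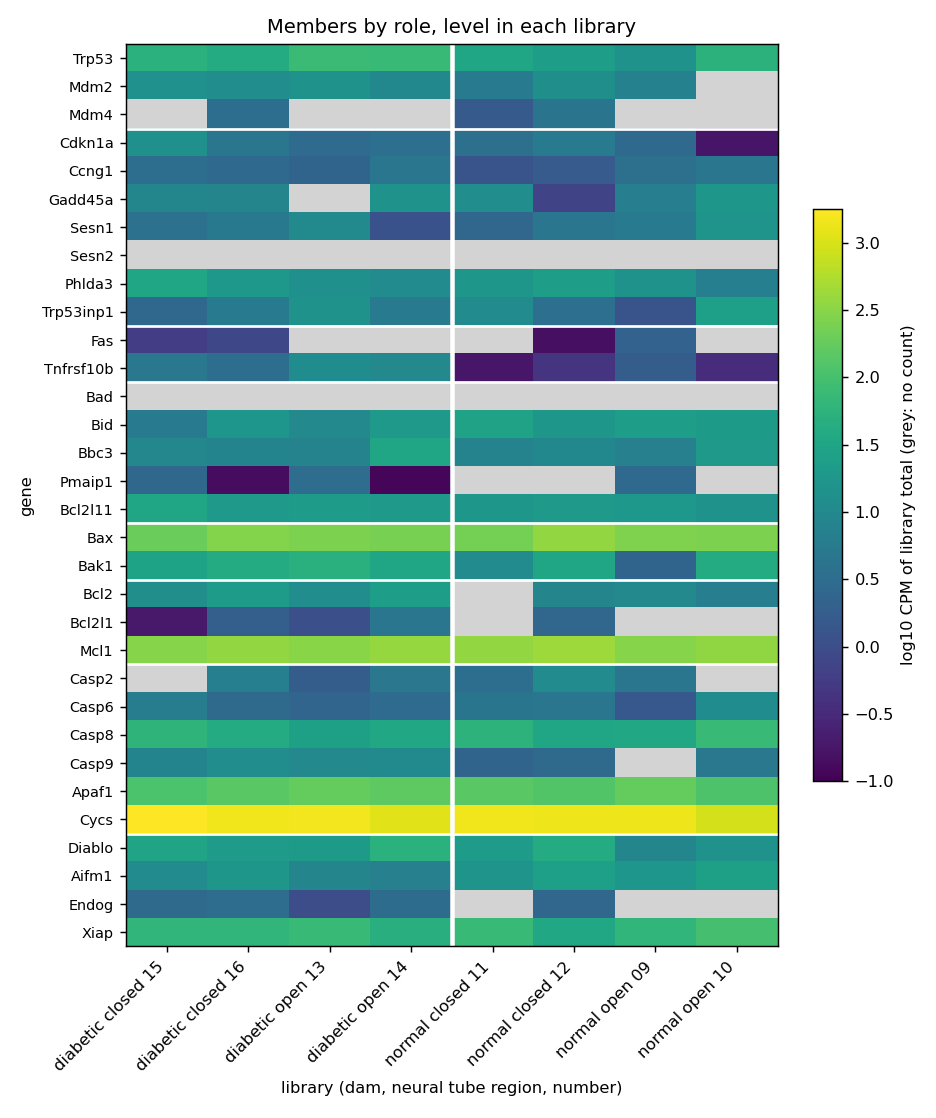
Level of each of the 32 genes (down the page, grouped by role) in each of the 8 libraries (across, diabetic dams left of normal dams), as log10 of CPM of the library total on the colour scale, with grey for no count. Cycs, Mcl1, Bax and Apaf1 are bright in every library, Bad and Sesn2 are grey throughout, and grey cells elsewhere fall in single libraries of Mdm2, Gadd45a, Bcl2 and Casp9 and in several of Mdm4, Fas, Pmaip1, Bcl2l1, Casp2 and Endog.

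The first comparison asks whether these genes differ with the dam, diabetic or normal, with region in the model. In edgeR's quasi-likelihood test, 29 members passed the filter on low counts, and none passed a Benjamini-Hochberg adjusted p of 0.05 over the 11779 genes tested, where 0% of all genes passed. DESeq2 and limma-voom also called 0 of the 29. At an unadjusted p below 0.05 edgeR had 2 members, Tnfrsf10b and Trp53, which is 6.90% of the 29 beside 4.55% of all genes. DESeq2 had 2 of the 29, beside 7.42% of all genes, and limma-voom had 5, beside 7.22%. Without library 13 the log2 fold changes of Tnfrsf10b and Trp53 were 3.48 and 0.91. They were 3.32 and 0.94 without library 15, and 3.17 and 1.32 without library 10. Such a fit leaves 1 library in a group, so members below that p are not counted for it. In 4 members all libraries of diabetic dams lay above all of normal dams (13.8%, beside 2.48% of all genes), namely Tnfrsf10b, Casp9, Bcl2 and Bcl2l11, the last of which overlaps under TMM or upper-quartile scaling. No member had all libraries of diabetic dams below all of normal dams, an arrangement seen in 1.15% of all genes. A gene passed the filter with 1.44 CPM or more in at least 2 libraries, and 5 of the 29 (Tnfrsf10b, Endog, Bcl2l1, Pmaip1 and Mdm4) did so through 1 kind of dam only, so that their dams had to differ to some degree. Of the 24 that passed with both kinds of dam, 1 was below an unadjusted p of 0.05, beside 3.63% of 9802 such genes. Bcl2, Bcl2l11 and Casp9 were the 3 of the 24 without overlap, beside 2.25% of those genes. As the members were chosen with earlier results of these data known, these shares describe the list and are no independent test. The median log2 fold change was 0.19 with 17 of 29 positive, beside 0.04 and 52.7% over all genes.

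Among p53 and its regulators, Trp53 itself had 52.4 and 41.7 CPM in closed and 80.1 and 75.0 CPM in open tube of diabetic dams, against 32.6 and 23.5 CPM in closed and 15.1 and 53.5 CPM in open tube of normal dams. The groups overlapped through library 10 alone, whose 53.5 CPM exceeded both closed libraries of diabetic dams. Within closed and within open tissue, both libraries of diabetic dams were above both of normal dams. The share of all genes with that arrangement in both regions was not counted, and Bid, described below, had the reverse. The mean of Trp53 was 62.3 ± 18.3 CPM in diabetic libraries, against 31.2 ± 16.5 CPM in normal ones (SD, n = 4 each). The log2 fold change was 0.96 with a standard error of 0.38 (edgeR, unadjusted p = 0.0294, adjusted p = 1.00). It was 1.19 ± 0.56 (SE) in open and 0.73 ± 0.56 in closed tissue, and the difference between these was not called (interaction, adjusted p = 1.00). Mdm2, the ubiquitin ligase that p53 induces and that degrades it, had 14.1, 12.1, 15.4 and 9.55 CPM in libraries 15, 16, 13 and 14 of diabetic dams, against 5.52, 12.9, 7.41 and 0 CPM in libraries 11, 12, 09 and 10 of normal dams. Library 12 overlapped the diabetic group and library 10 had no tag; the log2 fold change was 1.09 ± 1.09 (SE; edgeR, adjusted p = 1.00). Mdm4, the p53 inhibitor related to Mdm2, had tags in only 3 libraries and is described with the regions. The 3 genes together summed to 57.3 to 95.5 CPM in diabetic and 22.5 to 53.5 CPM in normal libraries, ranges that do not overlap with library totals, TMM or upper-quartile scaling. Trp53 made up most of this sum in every library. The gap is smaller than the 7.41 CPM of Mdm2 in library 09, while library 10, the highest normal one, had no Mdm2 tag. How often sums of other genes lie apart was not tested.

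The death receptors were the least abundant role. Tnfrsf10b, the mouse receptor for the death ligand TRAIL, had 4.96, 3.49, 11.6 and 10.1 CPM in libraries 15, 16, 13 and 14 of diabetic dams, against 0.178, 0.444, 1.78 and 0.353 CPM in libraries 11, 12, 09 and 10 of normal dams. Every library of diabetic dams was above every library of normal dams, in both regions, and the open libraries of diabetic dams were highest. The mean was 7.55 ± 3.93 CPM against 0.688 ± 0.734 CPM (SD, n = 4 each). The log2 fold change was 3.46 with a standard error of 1.24 (edgeR, unadjusted p = 0.0174, adjusted p = 1.00). The normal libraries held 1, 3, 18 and 2 counts, so the gene passed the filter through diabetic dams alone, and its p supports no difference by itself. Over all alternatives it ran from 3.15 to 4.15, and the lowest adjusted p was 0.177, with DESeq2. Fas, the receptor for Fas ligand and a p53 target, had at most 2.17 CPM, in library 09, was at 0 in 4 libraries and was not tested.

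**Figure D2:**
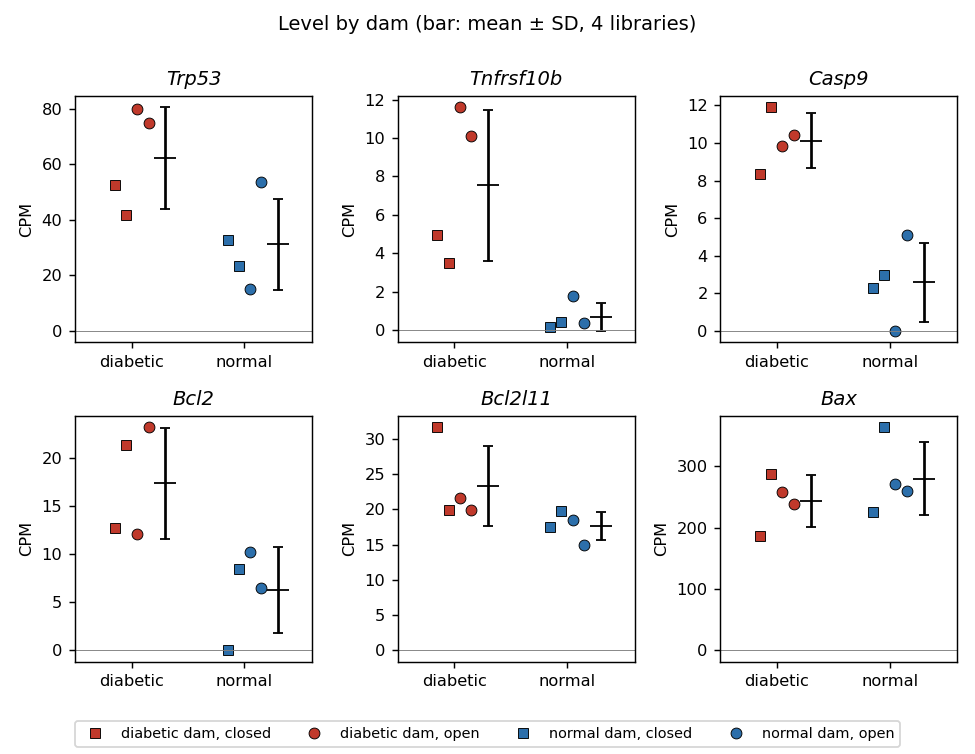
CPM of library total (vertical axis) for 6 genes in libraries of diabetic dams (left in each panel, red) and normal dams (right, blue), with squares for closed and circles for open tube and bars for mean ± SD of 4 libraries. Tnfrsf10b, Casp9 and Bcl2 have no overlap between dams, Bcl2l11 is apart only on this scaling and overlaps under TMM, Trp53 overlaps through 1 normal library, and Bax overlaps throughout.

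BH3-only proteins, which start the mitochondrial pathway, overlapped between dams: their sum was 42.8 to 70.9 CPM in diabetic and 46.6 to 55.8 CPM in normal libraries. Bbc3, which encodes the p53 target PUMA, had 9.12, 8.37, 7.87 and 31.8 CPM in libraries 15, 16, 13 and 14 of diabetic dams, against 7.84, 9.48, 7.21 and 19.9 CPM in libraries 11, 12, 09 and 10 of normal dams. One open library of each dam, 14 and 10, stood above the other 6, which lay within 7.21 to 9.48 CPM. Bcl2l11, which encodes BIM, had 31.7, 19.95, 21.6 and 19.9 CPM with diabetic dams, against 17.5, 19.7, 18.5 and 14.996 CPM with normal dams, in the same library order. The gap between the groups was 19.9 against 19.7 CPM, and with TMM scaling it closed, at 19.5 against 20.2 CPM. The log2 fold change was 0.38 ± 0.41 (SE; edgeR, adjusted p = 1.00). Pmaip1, which encodes the p53 target NOXA, reached 3.30 CPM at most and was at 0 in 3 libraries, all of normal dams. Bid, which links death receptors to mitochondria and is named here after its values were seen, had 5.75, 17.3, 10.03 and 19.1 CPM with diabetic dams, against 27.8, 17.5, 22.9 and 20.8 CPM with normal dams. The groups overlapped by libraries 14 and 12, but within closed and within open tissue both diabetic libraries were below both normal ones. The log2 fold change was -0.80 ± 0.52 (SE; edgeR, unadjusted p = 0.158, adjusted p = 1.00).

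The pore formers were represented mainly by Bax. It had 187, 287, 258 and 239 CPM in libraries 15, 16, 13 and 14 of diabetic dams, against 226, 364, 270.3 and 259 CPM in libraries 11, 12, 09 and 10 of normal dams. Its lowest value was in a closed library of diabetic dams and its highest in a closed library of normal dams, with the other 6 between them. The log2 fold change was -0.22 ± 0.21 (SE; edgeR, adjusted p = 1.00), and it stayed between -0.32 and -0.05 over the alternatives. Bak1, the other pore former, had 28.8, 41.7, 50.6 and 32.1 CPM with diabetic dams, against 11.4, 32.4, 2.37 and 41.5 CPM with normal dams. Libraries 11 and 09 of normal dams were the lowest, and the remaining pair of normal libraries lay within the diabetic range.

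Among survival members of the Bcl2 family, Bcl2 was far below Mcl1. Bcl2, which holds BH3-only proteins and Bax in check, had 12.7, 21.3, 12.1 and 23.2 CPM in libraries 15, 16, 13 and 14 of diabetic dams, against 0, 8.44, 10.2 and 6.53 CPM in libraries 11, 12, 09 and 10 of normal dams. All 4 diabetic libraries were above all 4 normal ones, with a gap from 12.1 to 10.2 CPM. The 0 in library 11 stood beside 8.44 CPM in the other closed library of normal dams, and its 95% Poisson interval reaches 0.657 CPM, for counting error only. The mean was 17.3 ± 5.74 CPM against 6.28 ± 4.45 CPM (SD, n = 4 each), and the log2 fold change was 1.51 ± 1.02 (SE; edgeR, unadjusted p = 0.168, adjusted p = 1.00). Without library 12 the log2 fold change was 2.44 and without library 11 it was 1.03. Mcl1 had 296, 365, 318 and 379 CPM with diabetic dams, against 369, 424, 301 and 348 CPM with normal dams, interleaved, with a log2 fold change of -0.09 ± 0.18 (SE; edgeR, adjusted p = 1.00). The ratio of Bax to Mcl1 counts was 0.631, 0.785, 0.810 and 0.630 with diabetic dams and 0.612, 0.859, 0.899 and 0.744 with normal dams, so Mcl1 had more tags than Bax in all 8 libraries. Bcl2l1, which encodes BCL-xL, was at 4.66 CPM or less and at 0 in 3 normal libraries, with 2.52 CPM in the remaining one.

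Of the caspases and the apoptosome, Casp9 was the gene whose dams did not overlap. Casp9, the initiator caspase activated on Apaf1, had 8.33, 11.9, 9.85 and 10.4 CPM in libraries 15, 16, 13 and 14 of diabetic dams, against 2.31, 2.96, 0 and 5.12 CPM in libraries 11, 12, 09 and 10 of normal dams. The 4 diabetic libraries were close to each other and all above the normal ones, in both regions. The mean was 10.1 ± 1.46 CPM against 2.60 ± 2.11 CPM (SD, n = 4 each), with a log2 fold change of 1.96 ± 1.25 (SE; edgeR, unadjusted p = 0.144, adjusted p = 1.00). The 0 in library 09, a library of 10127618 counts, has a 95% Poisson upper bound of 0.364 CPM and stood beside 5.12 CPM in library 10. Without library 10 the log2 fold change was 3.30 and without library 09 it was 1.54. Apaf1 had 109.7, 146, 175 and 158 CPM with diabetic dams, against 143, 126, 179 and 116 CPM with normal dams, and the groups overlapped fully. Its log2 fold change was 0.03 ± 0.22 (SE; edgeR, adjusted p = 1.00), and it turned to -0.17 with Xist state as a covariate. Cycs had 1741, 1458, 1488 and 1137 CPM with diabetic dams, against 1446, 1391, 1376 and 957 CPM with normal dams. Its ranges overlapped, and the log2 fold change of 0.15 ± 0.18 (SE; edgeR, adjusted p = 1.00) was -0.00 with Xist state as a covariate.

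Casp8, the initiator caspase of death receptors, had 57.5, 41.2, 26.3 and 34.4 CPM in libraries 15, 16, 13 and 14 of diabetic dams, against 57.0, 31.4, 35.7 and 72.7 CPM in libraries 11, 12, 09 and 10 of normal dams. The values interleaved, with the lowest and the highest in open tissue. Casp2, an initiator caspase linked to DNA damage, ranged from 0 to 11.1 CPM and was at 0 in libraries 15 and 10. Casp6, an executioner caspase, ranged from 1.48 to 11.8 CPM. Neither separated the dams.

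The proteins released from mitochondria, and the inhibitor they act on, gave mixed values. Aifm1, which encodes apoptosis-inducing factor and also serves the respiratory chain, is named here after its values were seen. It had 11.3, 17.9, 8.71 and 7.16 CPM with diabetic dams, against 16.03, 25.3, 16.8 and 25.6 CPM with normal dams, so that only library 16 reached the normal range. Its log2 fold change was -0.97 ± 0.51 (SE; edgeR, unadjusted p = 0.0851, adjusted p = 1.00). Aifm1 is on the X chromosome, and its 25.3 and 25.6 CPM were in libraries 12 and 10, the ones with Xist. The log2 fold change was -0.65 with Xist state as a covariate and -0.67 in the 6 libraries without Xist. Endog, which encodes the mitochondrial endonuclease G, had 1.02 to 3.35 CPM in all 4 libraries of diabetic dams and was at 0 in 3 of 4 libraries of normal dams, with 2.52 CPM in library 12. Diablo, which blocks caspase inhibitors, had 30.9, 21.8, 20.4 and 51.1 CPM with diabetic dams, against 21.9, 41.9, 8.99 and 14.996 CPM with normal dams. Xiap, the caspase inhibitor that Diablo counters, had 62.1, 62.9, 72.3 and 47.9 CPM with diabetic dams, against 72.3, 35.2, 63.3 and 100.0 CPM with normal dams. Its normal libraries spanned the whole diabetic range. Xiap is also on the X chromosome. Libraries 12 and 10, the ones with Xist, held its lowest and its highest value, 35.2 and 100.0 CPM. The part of embryo sex in the values of Aifm1 and Xiap was not tested.

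The p53 targets of arrest, repair and feedback did not separate the dams: their sum was 40.8 to 63.9 CPM in diabetic and 35.7 to 70.6 CPM in normal libraries, with 3 of 7 higher in mean with diabetic dams. Ccng1, which encodes cyclin G1, ranged from 1.25 to 4.66 CPM. The sestrin Sesn1 ranged from 1.19 to 15.9 CPM, and Trp53inp1, a p53-induced stress protein, from 1.28 to 25.1 CPM. Gadd45a, a DNA damage response gene, ranged from 0 in library 13 to 17.996 CPM in library 10.

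Markers of other tissues also stood at other levels in the 2 kinds of dam. Endothelial markers summed to 63.5 to 318 CPM in diabetic and 26.4 to 59.6 CPM in normal libraries, 8 of 10 genes having the higher mean with diabetic dams, although Kdr and Flt1 were at or near 0. Paraxial mesoderm markers summed to 289 to 1600.2 CPM and 155 to 423 CPM, higher in mean with diabetic dams in 10 of 10 genes. Primitive blood markers summed to 4.36 to 1010.2 CPM and 0.296 to 63.3 CPM, with 7 of 8 genes higher in mean and Hbb-y at 0, and heart and lateral mesoderm markers to 0 to 101 CPM and 0 to 5.999 CPM, with 3 of 6 higher in mean and Nkx2-5, Tnnt2 and Tbx5 at 0. Neural progenitor markers summed to 4379 to 5585 CPM and 4149 to 5529.6 CPM, but 3 of 9 were higher in mean with diabetic dams, and the sum is carried mainly by Sox11 and Lin28a. Pax6 had 4.92 to 40.8 CPM in diabetic and 45.2 to 62.9 CPM in normal libraries, without overlap. Dorsal neural and neural crest markers summed to 135 to 1259.5 CPM and 414 to 1027 CPM, with 1 of 7 higher in mean with diabetic dams. The part of these tissues in the values of Trp53, Tnfrsf10b, Casp9 and Bcl2 was not tested, and a change in the share of a cell type cannot be told apart from a change of RNA per cell in such bulk tissue. Library 13 was the richest in endothelial and mesoderm markers. The endothelial sums of libraries 15, 16 and 14, at 63.5, 90.0 and 139.6 CPM, were also above every normal library. Leaving out library 13 thus keeps a difference in these markers between dams. Without it the log2 fold changes were 3.48 for Tnfrsf10b, 1.98 for Casp9, 1.78 for Bcl2 and 0.91 for Trp53 (edgeR). In the 6 libraries without Xist these were 3.27, 3.81, 2.44 and 1.33 (edgeR, adjusted p = 0.880 for each). Pax3, whose loss in mouse embryos leads to p53-dependent cell death, had 136, 50.5, 7.75 and 34.7 CPM in libraries 15, 16, 13 and 14 of diabetic dams, against 75.0, 98.3, 56.6 and 112 CPM in libraries 11, 12, 09 and 10 of normal dams. In open tissue both Pax3 values with diabetic dams were below both with normal dams, and in closed tissue they lay on either side of them.

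**Figure D3:**
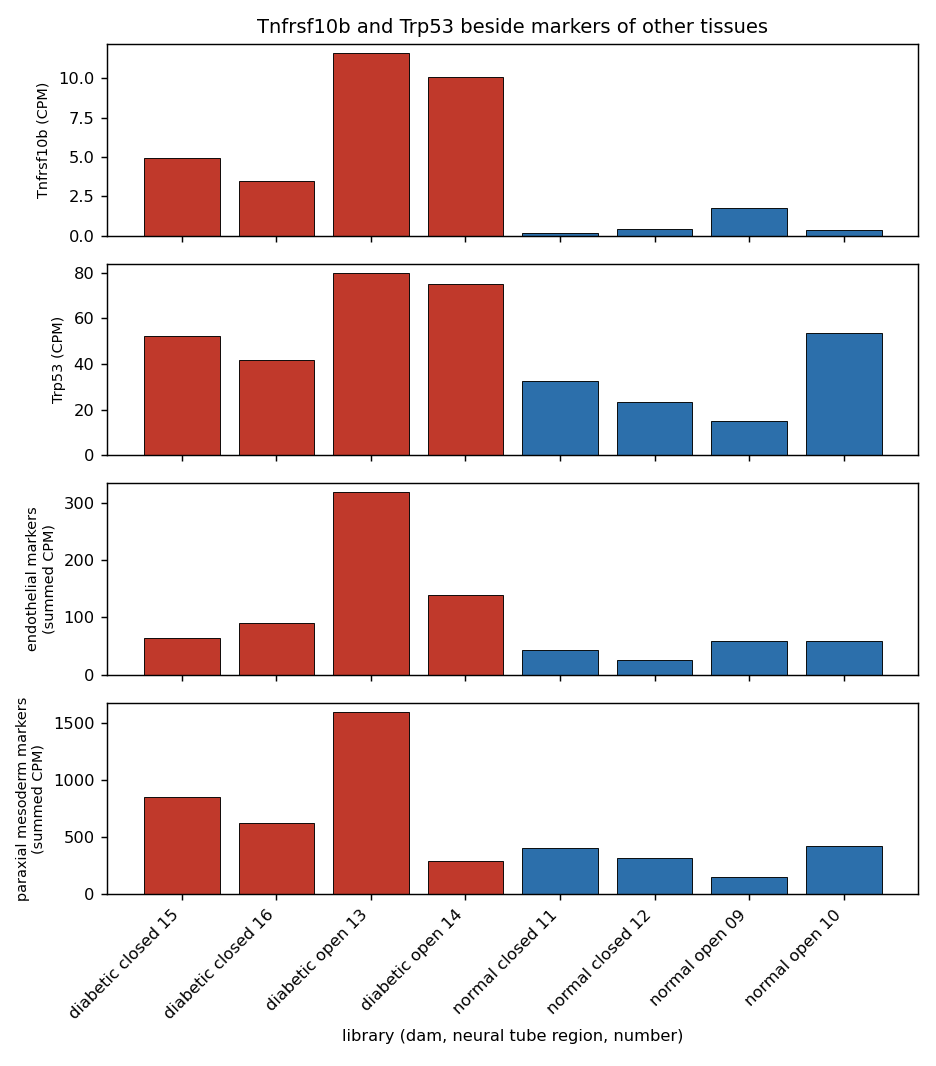
Bars give, for each library (across, diabetic dams in red left of normal dams in blue), the CPM of Tnfrsf10b and of Trp53 and the summed CPM of the endothelial and paraxial mesoderm markers, each panel with its own axis from 0. Open library 13 of diabetic dams has the highest bar in all 4 panels, and the endothelial sum is higher in every diabetic library (63.5 to 318 CPM) than in every normal one (26.4 to 59.6 CPM).

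The second comparison sets closed against open tube, with dam in the model. No member passed an adjusted p of 0.05 in edgeR, DESeq2 or limma-voom, and 0% of all genes passed in edgeR. At an unadjusted p below 0.05 edgeR had 1 member, Mdm4, or 3.45% of the 29 beside 3.32% of all genes. Mdm4 passed the filter through closed tube alone, as its open libraries were all at 0, so its p is partly fixed by the filter. Of the 25 members that passed in both regions, 0 were below that p, beside 2.43% of 9769 such genes. In 2 members all closed libraries lay above all open ones (6.90%, beside 1.68% of all genes), namely Phlda3 and Cdkn1a, both among the 25. Their role, the p53 targets of arrest, repair and feedback, did not follow them. Of its 6 genes tested, 2 had a positive log2 fold change, with a median of -0.54. No member had all closed libraries below all open ones, as 1.07% of all genes did. Of the 29 log2 fold changes 16 were positive with a median of 0.09, beside 55.5% and a median of 0.07 over all genes.

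Phlda3, a p53 target that restrains the kinase Akt, had 31.3, 18.6, 17.99 and 23.5 CPM in closed libraries 15, 16, 11 and 12, against 13.6, 11.2, 15.3 and 6.88 CPM in open libraries 13, 14, 09 and 10. All closed libraries were above all open ones, with both dams. The mean was 22.9 ± 6.18 CPM in closed and 11.7 ± 3.65 CPM in open tube (SD, n = 4 each), with a log2 fold change of 0.99 ± 0.49 (SE; edgeR, unadjusted p = 0.0707, adjusted p = 1.00). Cdkn1a, which encodes the cell cycle inhibitor p21, had 13.7, 4.74, 3.74 and 5.33 CPM in the closed libraries, against 3.06, 3.58, 2.86 and 0.176 CPM in the open ones. The gap was narrow, from 3.74 CPM in closed library 11 to 3.58 CPM in open library 14, and closed library 15 stood far above the rest. The log2 fold change was 1.54 ± 1.16 (SE; edgeR, unadjusted p = 0.211, adjusted p = 1.00); it was 1.17 without library 15 and 2.45 without library 09.

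Mdm4 had 25 counts in closed library 16, 9 in closed library 11 and 29 in closed library 12, and none in closed library 15 or in any open library. The 3 libraries with tags were thus all from closed tissue, of both dams. Pooled, that is 63 of 24577647 counts in closed tube (2.56 CPM) and 0 of 40827633 in open tube, where 3 counts over the group would be 0.0735 CPM. With the lower 95% Poisson limit of the closed counts, 48.4, set against those 3 counts, the pooled level was 26.8-fold higher in closed tube. This ratio covers counting error only and is no lower bound on a difference between regions. Within closed tube of diabetic dams the level ran from 0 in library 15 to 3.49 CPM in library 16, a spread between replicates that the ratio leaves out. Cycs had 1741, 1458, 1446 and 1391 CPM in closed libraries 15, 16, 11 and 12, against 1488, 1137, 1376 and 957 CPM in open libraries 13, 14, 09 and 10. Only open library 13 reached into the closed range, and under upper-quartile scaling it did not; the log2 fold change was 0.32 ± 0.18 (SE; edgeR, unadjusted p = 0.101, adjusted p = 1.00).

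**Figure D4:**
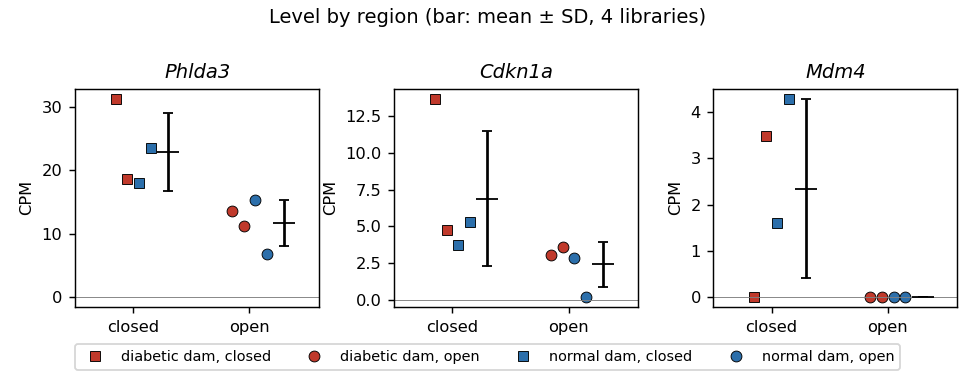
CPM of library total (vertical axis) for Phlda3, Cdkn1a and Mdm4 in closed (left in each panel, squares) and open tube (right, circles), red for diabetic and blue for normal dams, with bars for mean ± SD of 4 libraries. Phlda3 and Cdkn1a do not overlap between regions, and Mdm4 is at 0 in all 4 open libraries and in 1 closed library.

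Dorsal neural and neural crest markers differed in level by region, summing to 497 to 1259.5 CPM in closed and 135 to 447 CPM in open tube, with 6 of 7 genes higher in mean in closed tube. Surface ectoderm markers summed to 95.3 to 248 CPM and 57.3 to 324 CPM, with 4 of 8 higher in mean. Endothelial markers summed to 26.4 to 90.0 CPM in closed and 58.2 to 318 CPM in open tube, with 2 of 10 higher in mean in closed tube. Primitive blood markers summed to 0.296 to 209.6 CPM and 1.06 to 1010.2 CPM, with 0 of 8 higher in mean in closed tube. The part of these tissues in the values of Phlda3, Cdkn1a, Mdm4 and Cycs was not tested.

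The dam comparison was also made within each region. In open tube no member passed an adjusted p of 0.05 in edgeR, DESeq2 or limma-voom (0% of all genes in edgeR), and 1 was below an unadjusted p of 0.05, Diablo, beside 7.22% of all genes. Diablo had 20.4 and 51.1 CPM in open libraries 13 and 14 of diabetic dams, against 8.99 and 14.996 CPM in open libraries 09 and 10 of normal dams. The groups did not overlap, but library 13 lay nearer to both normal libraries than to library 14. Its log2 fold change was 1.58 ± 0.67 (SE; edgeR, unadjusted p = 0.0404, adjusted p = 0.68), and it was 0.74 without library 14. In closed tube, where 30.9 and 21.8 CPM with diabetic dams stood against 21.9 and 41.9 CPM with normal dams, it was -0.30 ± 0.65 (SE; edgeR, adjusted p = 1.00). In closed tube no member passed either threshold in edgeR, against 0% of all genes by adjusted p and 1.17% by unadjusted p. The interaction of dam and region likewise had no member past either threshold, against 0% and 3.74% of all genes, and DESeq2 and limma-voom called 0 members by adjusted p in both. For Diablo it was -1.87 ± 0.93 (SE; edgeR, unadjusted p = 0.0725, adjusted p = 1.00).

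**Figure D5:**
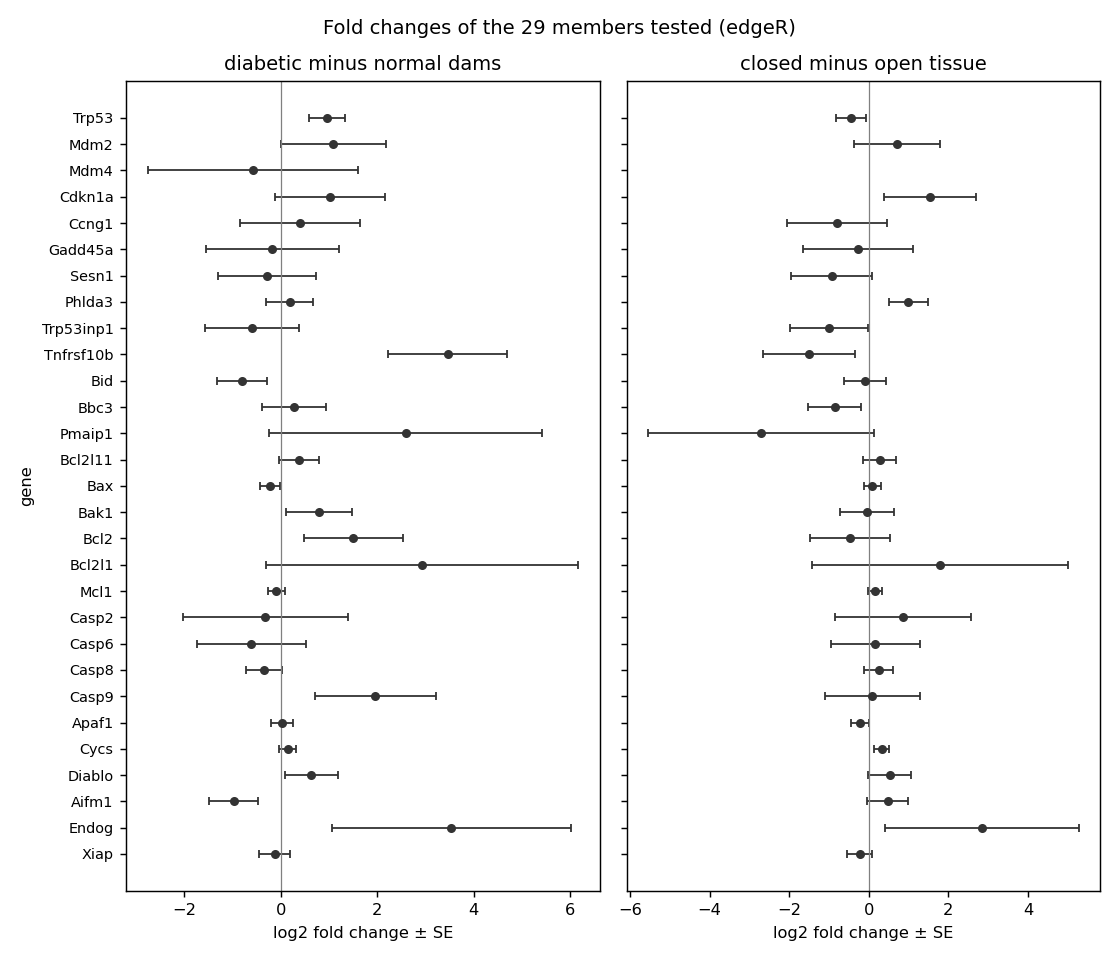
Log2 fold change (horizontal axis) with its standard error for each of the 29 genes tested in edgeR, for diabetic minus normal dams (left panel) and closed minus open tube (right panel); Mdm4 is left out on the right because its open libraries are all at 0. Abundant genes such as Cycs, Mcl1, Bax and Apaf1 have short bars near 0, while the widest bars belong to Bcl2l1, Pmaip1 and Endog, which are at 0 in 3 libraries each.

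The precision of these comparisons followed abundance. The standard error of the dam comparison was 0.18 to 0.22 for Cycs, Mcl1, Bax and Apaf1, and 1.02 to 1.25 for Bcl2, Mdm2, Tnfrsf10b and Casp9, with a median of 0.67 over all genes tested. For the abundant genes the tables thus bound a difference more closely than for the scarce ones.

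Other genes of the same pathways were taken from 3 further lists. Of 22 other p53 target genes found, 17 were tested, 11 had a positive log2 fold change between dams (median 0.53) and 7 between regions (median -0.12), and none passed an adjusted p of 0.05 in edgeR; at an unadjusted p below 0.05 there was 1 between dams and 0 between regions. For all 3 lists, the shares of all genes below that p between dams were 4.55% (edgeR), 7.42% (DESeq2) and 7.22% (limma-voom). Between regions the shares were 3.32%, 5.53% and 5.23% in the same order. DESeq2 and limma-voom called 0 of this list by adjusted p, with 4 and 3 of the 17 below the unadjusted p between dams and 2 and 1 between regions. The one in edgeR was Plk2, a kinase induced by p53, with 6.55, 9.63, 38.9 and 9.79 CPM in libraries 15, 16, 13 and 14 of diabetic dams, against 3.03, 0.148, 1.58 and 0 CPM in libraries 11, 12, 09 and 10 of normal dams. It did not overlap between dams and was highest in library 13, with a log2 fold change of 3.58 ± 1.36 (SE; edgeR, unadjusted p = 0.0238, adjusted p = 1.00). The most abundant of this list, Zmat3 and Gtse1, averaged 182 and 44.6 CPM over the 8 libraries and overlapped between dams.

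Of 23 p53 regulators and relatives, 16 were tested, with 7 positive between dams and 6 between regions (median -0.04 in both) and none past an adjusted p of 0.05 or below an unadjusted p of 0.05 in edgeR, DESeq2 or limma-voom. Atr, a kinase that signals DNA damage to p53, had 37.3 to 53.1 CPM in diabetic and 25.2 to 34.9 CPM in normal libraries without overlap, a log2 fold change of 0.52 ± 0.30 (SE; edgeR, adjusted p = 1.00). Rfwd2, which encodes the p53 ubiquitin ligase COP1, had 171 to 211 CPM in closed and 215 to 294 CPM in open tube, also without overlap except under TMM or upper-quartile scaling, at -0.34 ± 0.19 (SE; edgeR, adjusted p = 1.00). Rpl23, a ribosomal protein that binds Mdm2, and Usp10, a deubiquitinase of p53, were the most abundant at 3727 and 428 CPM and overlapped in both comparisons. Kat5, Trp73, Rpl5 and Rpl11 were at 0 in all libraries and Npm1 held 7 counts in all, although each has a predicted window of its own. Here too a 0 means no counted tag and not absent RNA.

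Of 30 other apoptosis genes, 24 were tested, with 15 positive between dams and 15 between regions (median 0.16 in both) and none past an adjusted p of 0.05 or below an unadjusted p of 0.05 in edgeR. DESeq2 and limma-voom called 0 as well, with 1 and 4 below that p between dams and 0 between regions. Dffa, the inhibitor of the apoptotic DNA-cutting enzyme, had 3.57, 3.35, 4.08 and 8.83 CPM with diabetic dams, against 0, 1.63, 0 and 0 CPM with normal dams in the same library order. Its predicted tag window is shared with 1 other gene, so the count is uncertain, and it passed the filter through diabetic dams alone. Tnfrsf1a, a receptor for tumour necrosis factor, had 0.595, 0.698, 0.5404 and 8.596 CPM with diabetic dams and 0 in all 4 libraries of normal dams; it did not pass the filter and was not tested. Hrk, a BH3-only protein of neurons, had 0 to 5.52 CPM in closed and 6.30 to 13.1 CPM in open tube without overlap, at -1.58 ± 1.30 (SE; edgeR, adjusted p = 1.00). Bnip3l, a mitochondrial receptor for autophagy, and Birc5, which encodes survivin, were the most abundant at 1278 and 885 CPM and overlapped in both comparisons.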

How the data were processed

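The authors deposited 1 table per library, which holds unnormalized counts of tags by gene symbol. Libraries were made with the SOLiD SAGE kit from 7 ng of total RNA, per the labels' protocols. Per the submitters' processing notes, reads were set against build mm9. No source used here names the aligner or counter, or says how strand and ambiguous tags were handled, so genes that overlap others are uncertain.

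Groups came from the labels, and library numbers are those of the sample titles. CPM is the count over the library total, times 1000000. The tests used R 4.3.3 and edgeR 4.0.16 (quasi-likelihood F test). The filter was filterByExpr with the 4 groups, a minimum count of 10 and a minimum total of 15; scaling was by TMM, and p-values were adjusted by Benjamini-Hochberg over all 11779 genes at 0.05. Dam and region were fitted together, and the differences within a region and the interaction came from a model of the 4 groups. Standard errors were derived from the F statistic. The scripts were tested on simulated counts. The alternatives were DESeq2 1.42.0, limma-voom (limma 3.58.1), library totals without TMM, upper-quartile scaling, no filter, a minimum count of 30, Xist state (above 100 CPM) as a covariate and leaving out each library. The 6 libraries without Xist were added after the data were seen.

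The members and lists were chosen with earlier results of these data known. The rule named members whose dams or regions did not overlap, those with an unadjusted p below 0.05, the 10 most abundant, and Trp53, Mdm2, Cdkn1a, Bax, Bcl2, Bbc3, Casp9 and Apaf1. From each further pathway list it named the 2 most abundant genes and up to 4 that met the overlap or p rule. Intervals and bounds cover counting error only, and tags without molecular identifiers are not independent molecules.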

Additional observations from a re-analysis of the deposited data

Results flagged for a closer look

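In several genes 1 library lay far from the other 3 of its dam or its region, by Dixon's 95% critical value for 4 samples. Chance alone does this in about 1 in 20 groups, and low counts make it easier. Cdkn1a stood at 13.7 CPM in closed library 15 of diabetic dams, against 3.06 to 4.74 CPM in the other diabetic libraries and 3.74 to 5.33 CPM in the other closed ones. Bcl2l11 stood at 31.7 CPM in the same library, against 19.9 to 21.6 CPM with diabetic dams. In closed tissue Pmaip1 stood at 2.58 CPM there, against 0 to 0.140 CPM. Bbc3 stood at 31.8 CPM in open library 14 of diabetic dams, against 7.87 to 9.12 CPM in the other diabetic libraries. Mdm4 stood at 3.49 CPM in closed library 16 of diabetic dams, against 0 in the other diabetic libraries. Endog was low, at 1.02 CPM, in open library 13 of diabetic dams, against 2.98 to 3.35 CPM.

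Among libraries of normal dams, open library 09 had 1.78 CPM of Tnfrsf10b against 0.178 to 0.444 CPM in the others. It also had 2.86 CPM of Pmaip1 against 0, and 2.17 CPM of Fas against 0 to 0.148 CPM with normal dams and 0 in open tissue. Closed library 12 had 2.52 CPM of Bcl2l1 and 2.52 CPM of Endog, both against 0 in the other normal libraries. Open library 10 had 957 CPM of Cycs, against 1376 to 1446 CPM with normal dams, and 11.8 CPM of Casp6, against 1.48 to 3.10 CPM in open tissue. The causes were not tested.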

How the results depend on the processing

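No member passed an adjusted p of 0.05 in any comparison under any alternative. Over all genes, edgeR called 0 in each of the 5 comparisons. DESeq2 called 37 between dams, 9 between regions, 203 between dams in open and 2 in closed tube, and 26 for the interaction. Without a filter edgeR called 89, 29, 138, 11 and 23 in the same order. Limma-voom called 1 in open tube and 1 for the interaction, and the Xist covariate gave 2 between dams. Leaving out 1 library gave 0 to 2 between dams, 0 to 3 between regions, 0 to 61 in open and 0 to 3 in closed tube, and 0 to 9 for the interaction. The highest counts came without library 15 or 16 between dams and in closed tube, without 16 between regions, and without 14 in open tube and for the interaction. Such a fit has a group of 1 library, which is assumed to vary like the others. For the interaction, 13 members were positive, and 13 to 20 with 1 library left out, 20 without library 12. The log2 fold change of Apaf1 between dams turned to -0.17 with the Xist covariate and in the 6 libraries without Xist, and ran from -0.11 to 0.17 with 1 library left out, being negative without library 16, 13 or 10. That of Cycs between dams was -0.00 with the Xist covariate. The causes were not tested. The other log2 fold changes recomputed kept their sign, among them Trp53 at 0.67 to 1.33, Mdm2 at 0.58 to 1.95, Bid at -1.10 to -0.52, Aifm1 at -1.19 to -0.65 and Phlda3 at 0.80 to 1.29. No paired analysis was possible because no number in the sample titles occurs in more than 1 group. Those of Trp53 within a region and for the interaction, and of Diablo in closed tube, were not recomputed. A member can hold no tag in 1 library beside 20 counts or more in its partner, also in deep libraries, as Gadd45a in library 13 and Casp9 in library 09.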
